A study of Mus musculus with 2 samples.

Results

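The scavenger receptors other than Cd36 comprised 10 genes on the array (Scarb2, Cd68, Msr1, Marco, Cd163, Olr1, Stab1, Stab2, Scarf1 and Lrp1). Each probe set, the group of oligonucleotides that reads a transcript, was taken where its annotation named exactly 1 gene and that gene was one of the 10. This gave 16 of the 45101 probe sets and 10 of the 18194 genes. RNA of the proximal section of the intestine, the upper part of the gut, was compared between C57BL/6 mice with a germline deletion of Cd36 (CD36KO) and wild-type (WT) C57BL/6 mice, both fed chow, whose age and sex the labels do not give. For each genotype the RNA of 3 animals was pooled and read on 1 array. There was therefore n = 1 per genotype, no difference below could be set against the spread between animals or arrays, no test was possible and precision is limited by the number of arrays. Because the deletion was germline, every cell type of the CD36KO tissue carried it.

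Scavenger receptors are membrane proteins that bind modified lipoproteins, dying cells, microbes and other polyanionic ligands and carry them into the cell. They are grouped into classes by their structure, and CD36 belongs to class B together with SCARB1 and the lysosomal protein LIMP-2, the product of Scarb2. Macrophages, sinusoidal and lymphatic endothelium express most of the other classes, whereas LIMP-2 is found in lysosomes of most cells and LRP1 in fibroblasts, smooth muscle and macrophages among others.

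Promoters are shown for the pair of genes with the highest signal, Scarb2 and Lrp1, and for Cd68, the gene with the largest difference. Each sequence is from RefSeq (GRCm38.p6), runs 5′ to 3′ on the strand of the gene from 250 bases before to 50 bases after its start, and has its CpG dinucleotides in capitals. The windows are chr5:92505608-92505907 (minus strand) for Scarb2, chr10:127621099-127621398 (minus strand) for Lrp1 and chr11:69666121-69666420 (minus strand) for Cd68.
Scarb2: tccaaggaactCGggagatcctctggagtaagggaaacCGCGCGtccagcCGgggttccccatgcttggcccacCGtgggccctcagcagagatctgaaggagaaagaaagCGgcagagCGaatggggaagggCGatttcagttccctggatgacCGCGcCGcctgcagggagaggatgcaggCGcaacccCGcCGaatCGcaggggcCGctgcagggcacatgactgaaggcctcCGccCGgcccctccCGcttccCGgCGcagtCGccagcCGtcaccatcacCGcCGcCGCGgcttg
Lrp1: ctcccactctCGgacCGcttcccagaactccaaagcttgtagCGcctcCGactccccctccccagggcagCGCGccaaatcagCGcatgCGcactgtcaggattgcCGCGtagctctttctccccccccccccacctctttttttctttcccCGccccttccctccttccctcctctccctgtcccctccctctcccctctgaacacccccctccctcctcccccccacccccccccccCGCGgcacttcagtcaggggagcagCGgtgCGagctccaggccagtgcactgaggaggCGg
Cd68: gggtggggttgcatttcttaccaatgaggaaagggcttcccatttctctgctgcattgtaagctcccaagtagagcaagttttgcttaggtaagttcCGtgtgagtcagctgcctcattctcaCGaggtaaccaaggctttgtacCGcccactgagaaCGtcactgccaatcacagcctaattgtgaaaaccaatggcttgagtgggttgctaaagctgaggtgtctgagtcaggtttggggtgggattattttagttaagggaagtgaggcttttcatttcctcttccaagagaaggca
The Scarb2 window held 28 CpG dinucleotides, the Lrp1 window 16 and the Cd68 window 4, against a median of 7 over all 32851 windows. Windows were found for 8 of the 10 genes. The other 5 (Marco, Cd163, Olr1, Stab1 and Stab2) held between 0 and 7. Across the array, genes above the background level described below had a median of 20 CpG dinucleotides in this window and genes below it a median of 7. The motif GGAAGT, a core bound by ETS factors such as the macrophage regulator PU.1, was searched on both strands and occurred in 1 of the 8 windows, that of Cd68, 12 bases after its start. It occurred in 23.8% of all windows. These counts describe the sequences, and no array value bears on factor binding.

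The deposited values are log2 signals without detection calls, so a low value could not be told from no signal. As a working background level, the median over all probe sets of the higher of the CD36KO and WT values was used, 4.51 (log2). By this level 9 of the 16 probe sets were above background on at least 1 array and 7 were below it on both. By construction 22551 of all 45101 probe sets were above it, so 9 of 16 is near the share of the whole array. A second yardstick was the signal of 44 probe sets for olfactory receptors, genes with little expected expression in gut, whose higher value had a median of 3.22, a 95th percentile of 4.63 and a maximum of 5.40. Of the scavenger receptor probe sets, 9 of 16 did not exceed that 95th percentile. The same share over all probe sets was not computed.

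**Figure D1:**
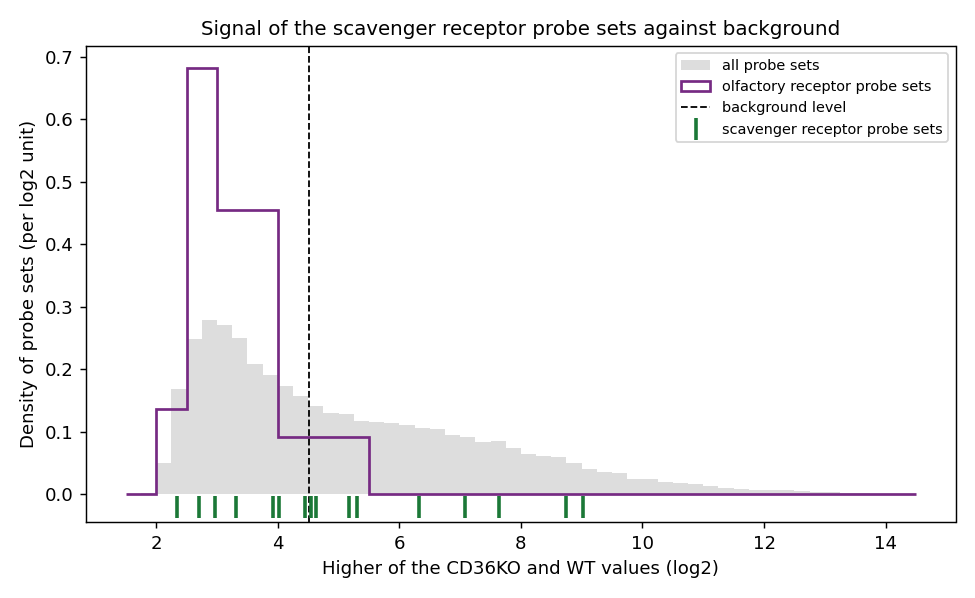
Density of probe sets by the higher of the CD36KO and WT values (log2, x axis) for all probe sets (grey) and for the 44 olfactory receptor probe sets (purple line), with the 16 scavenger receptor probe sets as green ticks and the background level of 4.51 dashed. The ticks of 7 probe sets lie below the dashed line, and the highest, that of Scarb2, is at 9.03.

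With each gene represented by its probe set with the highest mean, 11981 of all 18194 genes were above background. Among the 10 receptor genes 6 were (Scarb2, Lrp1, Stab1, Msr1, Cd68 and Scarf1), near that share. Of these, 4 were above it on both arrays, whereas Cd68 passed through the CD36KO array alone and Scarf1 through the WT array alone. Past 1.5-fold, 1 gene, Cd68, was higher in CD36KO and 0 were lower. Over all 11981 genes above background, 5.31% were higher and 3.31% were lower by that margin, so 1 of 6 says little about the receptors as a group. Cd68 met the background level only where it was high and could enter the count only by differing. The median CD36KO minus WT difference of the 6 genes was -0.12 (log2), against -0.0059 for all genes above background. That of the 4 genes above background on both arrays was also -0.12, and that of all 10 genes -0.023. The quartiles of all genes above background were -0.19 and 0.19, so these medians lie well within the usual spread. Scarf1, admitted through the WT array alone, was bound to have a negative difference. At the level of probe sets, 1 was at least 1.5-fold higher, where 6.55% of all 22551 probe sets above background were, and 1 was at least 1.5-fold lower, a second probe set of Lrp1, where 4.06% were. The other 7 probe sets above background differed by -0.43 to 0.09 (log2).

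**Figure D2:**
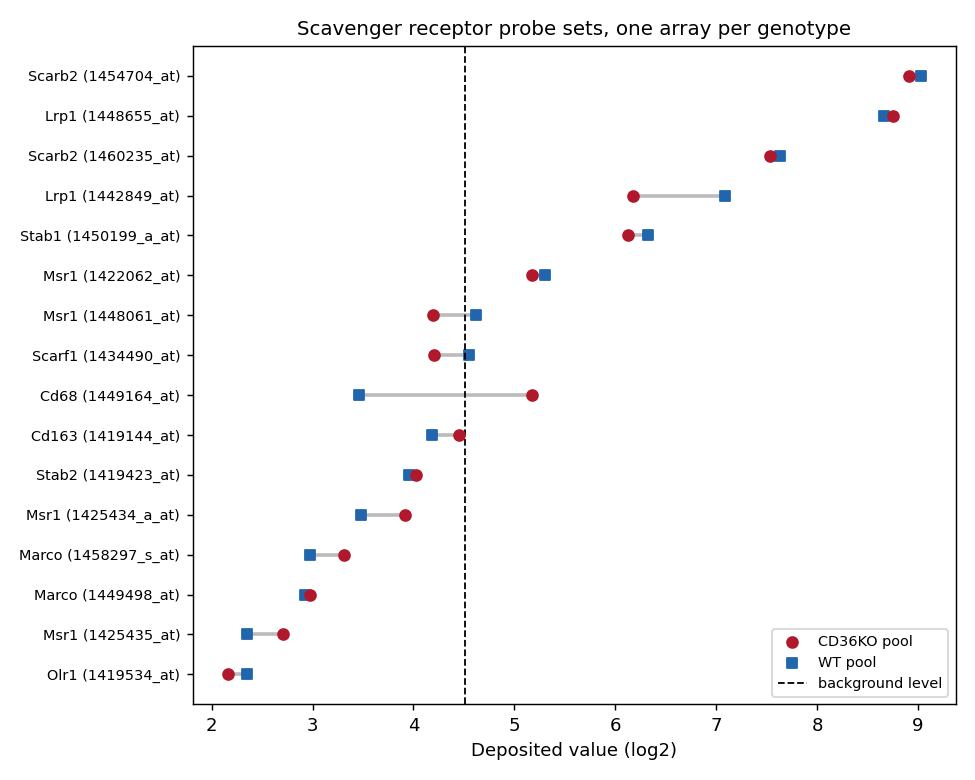
Deposited log2 value (x axis) of each of the 16 scavenger receptor probe sets in the CD36KO pool (red circles) and the WT pool (blue squares), 1 array each, with the background level of 4.51 dashed. The longest connecting lines are those of Cd68, at 5.18 in CD36KO and 3.46 in WT, and of the Lrp1 probe set at 6.18 in CD36KO and 7.09 in WT.

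Scarb2 encodes LIMP-2, a class B relative of CD36 that resides in lysosomes and carries glucocerebrosidase there. Its brighter probe set, 1454704_at, read 8.91 in CD36KO and 9.03 in WT, at percentiles 93.2 and 93.8, in the same order, of all probe sets of the array. The second, 1460235_at, read 7.53 in CD36KO and 7.63 in WT. Both were thus slightly lower in CD36KO, by 1.08-fold and 1.07-fold. The 2 differences, -0.11 and -0.10 (log2), lay 0.013 apart. For the 4801 genes with several probe sets above background the median range of differences within a gene was 0.35, and 98.6% had a range at least as wide as that of Scarb2. Among the receptor genes with several probe sets, those of Scarb2 gave the closest differences.

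The class B genes other than Scarb2 read lower in CD36KO. Cd36, the deleted gene and a receptor for long-chain fatty acids and oxidized lipoproteins, read 6.02, 5.87 and 3.52 in CD36KO and 7.68, 7.70 and 4.74 in WT at its 3 probe sets. It was lower in CD36KO at each of them, and whether they lie within the deleted part was not analysed here. Scarb1, the HDL receptor SR-BI, read 6.60, 6.45 and 5.82 in CD36KO and 7.14, 7.17 and 6.66 in WT. Its differences of -0.54, -0.72 and -0.84 (log2) all had the same sign. By the brightest probe set Scarb1 was 1.45-fold lower in CD36KO, within 1.5-fold, and by the other probe sets it was 1.64-fold and 1.79-fold lower. Genes of the proximal small intestine, none of them a scavenger receptor, had a median difference of -0.52 in the same pools, and their part in the Scarb1 values was not tested.

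Lrp1, a very large receptor of the LDL receptor family that takes up apolipoprotein E remnants, protease complexes and calreticulin-marked cells, gave readings that disagreed between probe sets. At 1448655_at, the brighter one, it read 8.75 in CD36KO and 8.66 in WT, a difference of 0.09 (log2). At 1442849_at it read 6.18 in CD36KO and 7.09 in WT, 1.87-fold lower in CD36KO. Both probe sets were well above the background level on both arrays, so the disagreement did not involve a value near background. The gap between the differences was 1.00 (log2), and 259 of the 4801 genes with several probe sets above background (5.39%) had a gap at least as wide. Of 349 such genes with a probe set at least 1.5-fold lower in CD36KO, 31 were at least 1.5-fold lower at every probe set above background, so a drop at part of a gene's probe sets was common on these arrays. At the array's control probe sets for mouse beta-actin and GAPDH transcripts, the gap between 3′ and 5′ readings was larger in WT than in CD36KO. For beta-actin, the 3′ reading exceeded the 5′ reading by 1.34 in CD36KO and by 2.28 in WT. For GAPDH it did so by 0.71 in CD36KO and by 1.28 in WT (log2). The part of coverage along transcripts in the Lrp1 readings was not tested, and where the Lrp1 probe sets lie along the transcript was not analysed here. Its part in the values of the other receptors and gene lists was not tested either.

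Cd68 encodes macrosialin, the class D receptor, a heavily glycosylated protein of late endosomes and lysosomes that is widely used as a macrophage marker. Its only probe set, 1449164_at, read 5.18 in CD36KO and 3.46 in WT, 3.28-fold higher in CD36KO. The WT value was at percentile 33.0 of its array, below the background level, and the CD36KO value at percentile 60.5, so the fold depends on an unknown background. The CD36KO value also lay below 5.40, the highest olfactory receptor reading. The size of the difference therefore has no firm place among those of other genes. Cd68 was one of 290 genes below background in WT and above it in CD36KO, while 249 genes were above it in WT and below it in CD36KO.

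Most macrophage markers read a little higher in CD36KO. Of the 27 measured, 24 were above background, 21 of them with a positive difference. By at least 1.5-fold, 6 were higher and 0 lower, beside 5.31% (higher) and 3.31% (lower) of all genes above background. The markers had a median difference of 0.27 (log2), and their summed signal, on the linear scale, was 8895 in CD36KO and 7254 in WT. Cybb, 1 of the 6, only just passed, with a difference of 0.586 (log2), and another probe set above background differed by -0.43. Lyve1, also counted, differed by 0.66 and at its other probe set by 0.13. C1qb, not counted, differed by 0.15 and at another probe set by 1.20. Cx3cr1, with a positive difference, passed the background level through the CD36KO array alone. Lyz2, a lysozyme of macrophages, led the list with 10.57 in CD36KO and 9.46 in WT. It was followed by the complement subunits C1qc, at 7.89 in CD36KO and 7.06 in WT, and C1qa, at 8.02 in CD36KO and 7.22 in WT. The fourth, Ly86, the partner of an LPS receptor homologue, read 7.48 in CD36KO and 6.78 in WT. Markers that define the lineage read as follows. Csf1r, the receptor for the macrophage growth factor, read 9.46 in CD36KO and 9.28 in WT, and Adgre1, which encodes F4/80, read 6.40 in CD36KO and 6.12 in WT. The 3 markers above background with a negative difference were Laptm5 (-0.21), Mertk (-0.11) and Aif1 (-0.04). Other Laptm5 probe sets above background had positive differences, up to 0.21 (log2). Itgam, Folr2 and Clec10a were below background in both pools. In such bulk RNA, more cells of a type and more RNA per cell cannot be told apart. The part of macrophage number in the Cd68 value was not tested. The next protein-coding gene along the chromosome on the side of the Cd68 promoter is Eif4a1, an RNA helicase of translation initiation. Its probe sets read 10.52, 9.56 and 8.10 in CD36KO and 10.39, 8.67 and 6.75 in WT. They differed by 0.13, 0.89 and 1.34 (log2). Mpdu1, the next protein-coding gene on the other side, read 8.74 in CD36KO and 8.92 in WT, a difference of the opposite sign. Any part of either gene in the Cd68 value was not tested.

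The class A receptors bind modified lipoproteins and bacteria. Msr1, the macrophage scavenger receptor, had 4 probe sets. The brightest, 1422062_at, read 5.18 in CD36KO and 5.30 in WT, and 1448061_at read 4.20 in CD36KO and 4.62 in WT. The remaining 2 were below background, at 3.92 and 2.71 in CD36KO and at 3.48 and 2.35 in WT. The pair above background was lower in CD36KO, by 0.12 and 0.43 (log2), and the pair below it was higher, by 0.44 and 0.36. However, 1448061_at passed the background level through the WT array alone, which favours a negative difference. All 4 differences were within 1.5-fold and of both signs. Marco, a class A receptor of marginal-zone and alveolar macrophages, was below background at both probe sets, at 3.31 and 2.97 in CD36KO and at 2.98 and 2.92 in WT.

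Olr1, the class E lectin-like receptor LOX-1 for oxidized LDL, read 2.16 in CD36KO and 2.35 in WT. These values lay at percentiles 1.25 of the CD36KO and 3.66 of the WT array, and the Olr1 reading was the lowest of the receptors on the CD36KO array. Scarf1, the class F receptor of endothelial cells that binds modified LDL and dying cells, read 4.20 in CD36KO and 4.55 in WT, 1.27-fold lower. Its WT value barely exceeded the background level and its CD36KO value did not.

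The class H receptors stabilin 1 and stabilin 2 clear hyaluronan, SPARC and dying cells and are made by sinusoidal and lymphatic endothelium, stabilin 1 also by tissue macrophages. Stab1 read 6.13 in CD36KO and 6.32 in WT, 1.15-fold lower, at percentiles 71.3 and 73.7. Stab2 was below background, at 4.03 in CD36KO and 3.96 in WT. Cd163, the class I receptor by which macrophages take up haptoglobin-haemoglobin complexes, read 4.45 in CD36KO and 4.19 in WT. Both Cd163 values lay just under the background level, where a low value could not be told from no signal. As with that of Scarf1 near the same level, the Cd163 difference of 0.26 (log2) therefore has no firm reading. Haptoglobin itself (Hp), its ligand, was below background as well, at 4.40 in CD36KO and 4.08 in WT. Of the 7 probe sets below background on both arrays, 6 had a positive and 1 a negative difference, and they ranged from -0.19 to 0.44 (log2) with 0 past 1.5-fold.

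**Figure D3:**
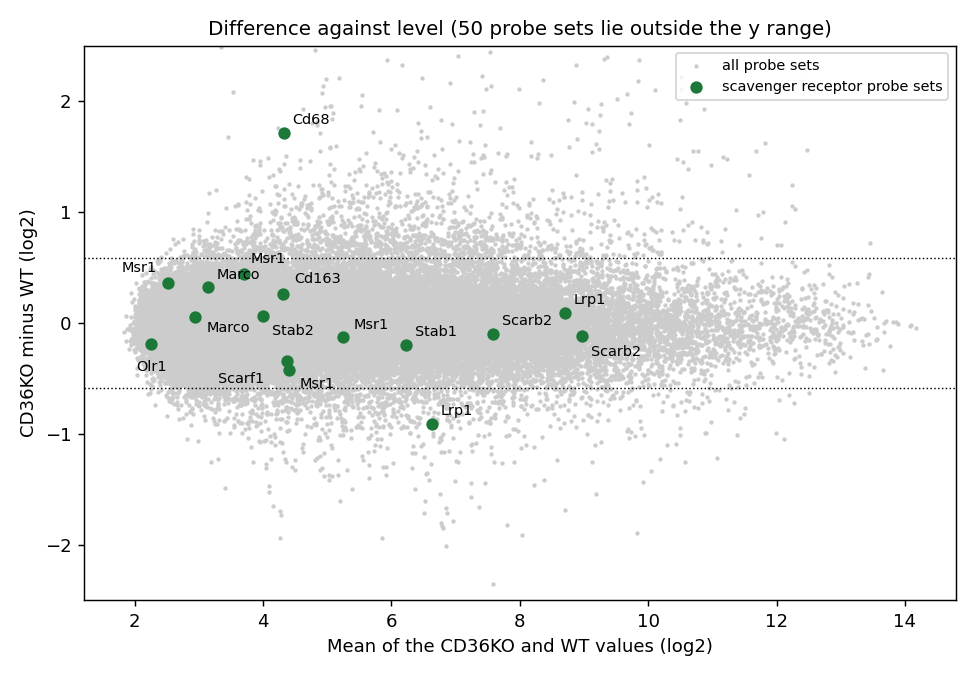
CD36KO minus WT difference (log2, y axis) against the mean of both values (log2, x axis) for all probe sets (grey) and the 16 scavenger receptor probe sets (green), with dotted lines at 1.5-fold and 50 probe sets outside the y range. Cd68, at 1.71, and the second Lrp1 probe set, at -0.91, are the only green points beyond the dotted lines.

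Scavenger and phagocytic receptors outside the 10 genes differed little. Of 30 measured, 20 were above background, and at the brightest probe set 0 of these passed 1.5-fold in either direction, beside 5.31% (higher) and 3.31% (lower) of all genes. Their median difference was 0.13 (log2), and 0.029 with each gene's probe set of smallest absolute difference. The highest was Axl, a receptor kinase for dying cells, with a difference of 0.58 (log2), just under the threshold. Mrc1, the mannose receptor, read 6.02 in CD36KO and 5.55 in WT, and Cd47, the signal that restrains phagocytosis, read 10.50 in CD36KO and 10.04 in WT. Lgals3bp differed by 0.34, Cd44, the hyaluronan receptor, by 0.32, Scarf2 by 0.31 and the collagen receptor Mrc2 by -0.24 (log2). Scarb1, described above, had the most negative difference of the list, and Scarf2 had another probe set above background at -0.23. That Scarf2 probe set and the Mrc2 one passed the background level through the WT array alone, which favours a negative difference.

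Lrp1 was set beside the other LDL receptor family genes, of which 7 of 13 measured were above background. Their median difference was 0.23 (log2), and 1 was higher and 0 were lower by at least 1.5-fold. The median turned to -0.085 with each gene's probe set of smallest absolute difference and was 0.097 with the mean over its probe sets. The gene past 1.5-fold was Lrp12, at 6.50 in CD36KO and 5.70 in WT. Sorl1, a sorting receptor of endosomes, read 8.24 in CD36KO and 7.87 in WT at its brightest probe set, with another at -0.40, so the sign depended on the probe set there too. Lrp4 differed by -0.39 and Lrp10 by 0.27. Lrpap1, the chaperone that keeps LRP1 free of ligand in the secretory pathway, read 8.17 in CD36KO and 8.06 in WT.

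Most extracellular ligands of these receptors read higher in CD36KO. Of 19 measured, 14 were above background. Of these, 6 were higher and 0 lower by at least 1.5-fold, beside 5.31% (higher) and 3.31% (lower) of all genes above background. The median difference of the 14 was 0.50 (log2). This median was 0.21 with each gene's probe set of smallest absolute difference and 0.33 with the mean over its probe sets, and it was 0.75 with the background level at the 75th percentile. Sparc, a collagen-binding matrix protein cleared by stabilin 1, read 9.57 in CD36KO and 8.60 in WT, and Apoe, a ligand of LRP1, read 9.72 in CD36KO and 8.85 in WT. C1qc and C1qa, named above as macrophage markers, were the next in size. The second Sparc probe set differed by 0.90 and the third by -0.05 (log2). Fibroblast markers, among them collagen genes, had a median difference of 0.81, with 10 of 15 at least 1.5-fold higher, a summed signal of 9116 in CD36KO and 4944 in WT and no marker below background. Their part in the ligand values was not tested.

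Lysosome genes, the compartment of LIMP-2 and macrosialin, were balanced around 0. Of 34 above background, 17 had a positive and 17 a negative difference, with 3 at least 1.5-fold higher, 1 at least 1.5-fold lower and a median of 0.0076 (log2), which took either sign under the alternatives, from -0.015 to 0.097. Neu1, a lysosomal sialidase, read 7.48 in CD36KO and 6.34 in WT, although its other probe sets, both below background, differed by 0.43 and -0.09. Npc1, which exports cholesterol from lysosomes, read 5.22 in CD36KO and 4.16 in WT, the WT value being below background. Laptm4a read 10.22 in CD36KO and 9.61 in WT. Lipa, the acid lipase that splits the cholesteryl esters delivered by scavenger receptors, read 8.24 in CD36KO and 9.15 in WT at its brightest probe set, and its 3 probe sets had differences of -0.90, -0.93 and -0.44 (log2).

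**Figure D4:**
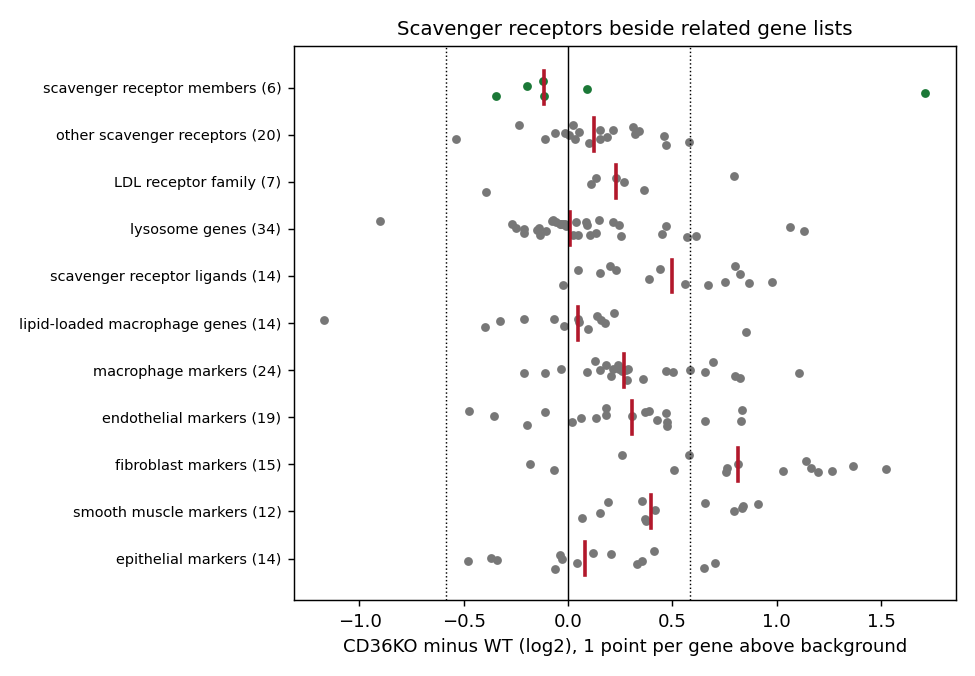
CD36KO minus WT difference (log2, x axis) of each gene above background, 1 point per gene, for the scavenger receptors (green) and 10 related lists (grey), with the number of genes in parentheses, red bars at the medians and dotted lines at 1.5-fold. The scavenger receptor median is -0.12, and the fibroblast list has the highest median of the lists shown, 0.81. Not shown are the lists of neutrophil, pancreas acinar, distal and proximal small intestine genes, with medians of -0.0075, 1.70, 1.55 and -0.52 in that order.

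The tissue and the cells that carry these receptors were checked by marker lists. Epithelial markers were all 14 above background, with a median difference of 0.08 (log2), 8 of them with a positive and 6 with a negative difference, and 2 at least 1.5-fold higher and 0 lower. The keratin Krt19 read 12.36 in CD36KO and 11.65 in WT, and lactase, Lct, read 12.26 in CD36KO and 12.74 in WT. Endothelial markers, which bear on Stab1, Stab2 and Scarf1, had a median of 0.31 over 19 genes above background, 15 of them with a positive and 4 with a negative difference, and the median was 0.18 with each gene's probe set of smallest absolute difference. Of these, 3 were at least 1.5-fold higher and 0 lower. Emcn, endomucin, read 5.32 in CD36KO and 4.48 in WT, and Pecam1, an adhesion molecule of endothelium, read 4.73 in CD36KO and 3.90 in WT. Both passed the background level through the CD36KO array alone and could enter that count only by differing. The third, Lyve1, which belongs to the macrophage list as well, was above background on both arrays. Its second probe set differed by 0.13 (log2). Flt1, a VEGF receptor, read 5.40 in CD36KO and 5.87 in WT at its brightest probe set. Another Flt1 probe set above background differed by 0.01 (log2). Smooth muscle markers had a median of 0.40 with 5 of 12 at least 1.5-fold higher. Of 14 neutrophil markers measured, 5 were above background, with a median of -0.0075. Past 1.5-fold was 1 of them, Cd177, at 6.57 in CD36KO, whose WT value of 4.51 lay just under the background level, so that it passed through the CD36KO array alone. The pools also differed in pancreas acinar genes, with a median of 1.70 and all 14 at least 1.5-fold higher, and in genes of the distal small intestine, with a median of 1.55 and 9 of 11 at least 1.5-fold higher and 1 lower. Of the 13 proximal genes, 6 were at least 1.5-fold lower. Among the distal and pancreas genes, Fgf15, Slc10a2 and Prss3 passed the background level through the CD36KO array alone. The part of these lists in the receptor values was not tested.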

How the data were processed

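Messenger RNA was measured on 2 arrays, each a pool of 3 animals, from 100 ng of total RNA per the labels' protocols. The authors deposited 1 table of 45101 log2 values per array; the log base follows from the range (maximum 14.1 in CD36KO and 14.2 in WT), while how they were summarized and normalized is not stated in the labels. The array medians were 4.38 in both pools.

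Probe sets were named from the array annotation: 34958 had 1 symbol, 932 several and 9211 none here. All 16 receptor probe sets matched the RefSeq gene table (GRCm38.p6) by identifier, with 0 symbols changed. The CD36KO minus WT difference was computed without further normalization. A gene took its probe set with the highest mean. Background was the median over probe sets of the higher value, and a call was a difference of at least 1.5-fold. With 1 array per genotype no p-value was computed. Named were all receptors, Cd36, up to 8 other scavenger receptors and up to 4 genes per list with the largest absolute difference, other genes being named after their values were seen. Members and the 14 lists were chosen with earlier results of these data known. A planned protein comparison was not run.

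Alternatives changed the scaling (median centring, quantile normalization, lowess with fraction 0.3), the value per gene, the background level and the fold threshold. The procedure was tested on simulated data. Software was matplotlib 3.10.9, statsmodels 0.14.6, NumPy 2.4.6 and pandas 2.3.3 under Python 3.11.15.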

Additional observations from a re-analysis of the deposited data

How the results depend on the processing

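With no replicate arrays, a value was counted as moved when it shifted by 0.1 (log2) or more. With the background level at the 75th percentile, which leaves Scarb2 and Lrp1, 0 receptor genes were at least 1.5-fold higher and the median difference was -0.012. With the probe set of largest absolute difference per gene, an alternative chosen after seeing the data, 1 receptor gene, Lrp1, was at least 1.5-fold lower and the median was -0.27. Under the other alternatives the count stayed at 1 higher and 0 lower, also at thresholds of 2-fold and 3-fold. Of 48 single receptor differences recomputed, 45 moved by less than 0.1. The exceptions were Lrp1 (-0.41 with the mean over its probe sets, -0.91 with the largest difference) and Msr1 (-0.43 with the largest difference). Many of the 48 could not move, so the count says little about robustness. A change of background level alters no single difference. Cd68, Stab1 and Scarf1 have a single probe set each, so the choice of probe set cannot alter theirs. Of the list medians, 21 of 125 moved by 0.1 or more, and taking each gene's probe set of smallest absolute difference put the LDL receptor family median at -0.085. The median of all genes shifted by at most 0.024. No paired analysis was possible because each genotype has 1 array, and leaving out an array leaves no comparison. Low signal limits what can be said of Marco, Cd163, Olr1 and Stab2. The larger gap between 3′ and 5′ control readings in WT cannot be told apart from genotype. It may bear on any probe set, and this was not tested.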

Other observations

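Genes of sterol efflux and lipid storage in macrophages, which handle the cargo of scavenger receptors, differed in both directions. Of 14 above background, 1 was higher and 1 was lower in CD36KO by at least 1.5-fold, with a median difference of 0.05 (log2), which was -0.012 with the mean over each gene's probe sets and -0.081 with the background level at the 75th percentile. Mylip, the ubiquitin ligase that degrades the LDL receptor, read 6.71 in CD36KO and 5.86 in WT. Pparg, a nuclear receptor that induces Cd36 in macrophages, read 5.73 in CD36KO and 6.90 in WT. Abca1, the cholesterol exporter, read 7.70 in CD36KO and 8.10 in WT, and Plin2, which coats lipid droplets, read 9.79 in CD36KO and 10.12 in WT. These genes are also expressed by enterocytes or adipocytes, so a change in macrophages cannot be told apart from one in other cells.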
